A study of Mus musculus with 12 samples.

Results

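In the lumbar spinal cord 10 chaperone genes were followed. They were the small heat-shock protein genes Hspb1, Hspb8, Hspb6, Hspb3 and Cryab, the co-chaperone genes Bag3 and Dnajb2, and the HSP70 genes Hspa8, Hspa1a and Hspa1b. The set was chosen by name, and all 10 were among the 49548 genes counted. The study compared MFN2 mice (8 libraries) with WT mice (4 libraries) by RNA-seq of lumbar cord, as 12 libraries, all from mice 30 days old and untreated. MFN2 mice were of the MitoCharc1 line on a B6;D2 background and carried human MFN2 with the R94Q substitution under the rat Eno2 promoter, which is active in neurons, in hemizygous form beside both mouse Mfn2 copies. WT mice were labelled C57BL/6, while the methods of the study describe littermates. By the labels, genotype and strain background cannot be told apart in any comparison of MFN2 with WT. MFN2 libraries were numbered 41 to 43 and 72 to 76 and WT libraries 44 to 47, so the second run of numbers held MFN2 mice only and could be compared with WT only together with that run. Whether the libraries were prepared in the same 2 sets is not given in the sources used here. The human transgene was not among the genes counted, and mouse Mfn2 lay between 190 and 228 CPM (counts scaled to a common library size) in all 12 libraries. The genotype labels were thus not checked here. The study itself genotyped its mice by PCR. It also reported that human MFN2 reads differed between the genotypes in its RNA-seq, while mouse Mfn2 did not differ significantly.

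Small heat-shock proteins are chaperones that work without ATP. They hold unfolding proteins in large oligomers until the HSP70 machine, driven by ATP, refolds them or hands them to degradation. BAG3 joins HSPB8 to HSP70 and steers clients towards autophagy, and DNAJB2 is a J-domain protein, abundant in neurons, that loads clients onto HSP70 and helps sort them to the proteasome. Mutations in HSPB1, HSPB8, HSPB3, DNAJB2 and BAG3 are known causes of inherited motor or axonal neuropathy in people, the disease class to which CMT2A, caused by MFN2, belongs.

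Library 43, labelled MFN2 spinal cord, stood apart from the other libraries, so fold changes that rest on it are also given without it. Its 8 forebrain marker genes summed to 4685 CPM, against 108.5 to 207.4 CPM in the other 11 libraries. Slc17a7, the vesicular glutamate transporter of forebrain excitatory neurons, was at 1032 CPM there and at no more than 13.6 CPM elsewhere. Its 7 caudal Hox genes summed to 23.4 CPM, against 128 to 178 CPM elsewhere, and its 6 motor neuron markers to 35.5 CPM, against 154 to 370 CPM. Its 6 oligodendrocyte markers summed to 8133 CPM, against 21104 to 33950 CPM. Its 8 immediate early genes, which respond to neuronal activity, summed to 231.9 CPM, against 44.7 to 57.8 CPM. The 4 Schwann cell markers were also high there, at 199.7 CPM, and in library 73, at 204.1 CPM, with 1.7 to 4.8 CPM in the other 10. No marker on these lists was at 0 in all libraries. The part of these tissues in the values of the chaperone genes was not tested. In bulk RNA, fewer cells of a type and less RNA per cell cannot be told apart.

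Total counts ran from 19359454 to 26738930 per library. Levels below are CPM scaled by the TMM method, and a gene was tested when it was above 1 CPM in at least 3 of the 12 libraries, which 15942 genes met. Of the 10 chaperone genes 9 met it, and Hspb3 did not. Groups were compared by the quasi-likelihood test of edgeR, p-values were adjusted over all genes tested by the Benjamini-Hochberg method, and a gene was called at a false discovery rate (FDR) under 0.05. Positions are those of GENCODE M21 on GRCm38. The labels give no litter or pool, so p-values measure the spread between these samples.

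Hspa1a (chr17:34969190-34972156) and Hspa1b (chr17:34956436-34959238) encode the near-identical inducible HSP70 proteins and lie side by side on the minus strand, each as 1 exon. RefSeq promoter windows on GRCm38.p6, from 250 bases before to 50 bases after a transcription start, were held for 8 of the 10 genes, in 10 windows. Heat shock elements, where the factor HSF1 binds, are built from alternating GAA and TTC units with 2 bases between them. The words GAANNTTC and TTCNNGAA, each of which reads the same on both strands and which may overlap by 1 unit, were searched in all windows. The windows of the pair that carried the largest difference, and that of Hspb1, are shown in transcript direction with the matches in capitals.
Hspa1a, chr17:34972107-34972406, minus strand: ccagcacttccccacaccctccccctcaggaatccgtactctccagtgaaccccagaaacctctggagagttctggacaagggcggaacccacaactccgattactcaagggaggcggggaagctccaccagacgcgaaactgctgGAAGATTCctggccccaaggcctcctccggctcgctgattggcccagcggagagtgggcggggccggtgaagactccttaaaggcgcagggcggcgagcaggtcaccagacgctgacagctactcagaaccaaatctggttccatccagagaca
Hspa1b, chr17:34959189-34959488, minus strand: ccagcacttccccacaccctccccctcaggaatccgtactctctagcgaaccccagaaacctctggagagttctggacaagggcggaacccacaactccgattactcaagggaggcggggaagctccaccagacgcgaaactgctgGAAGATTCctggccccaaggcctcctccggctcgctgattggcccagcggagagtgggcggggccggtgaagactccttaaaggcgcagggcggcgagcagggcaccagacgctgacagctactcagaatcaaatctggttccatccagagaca
Hspb1, chr5:135887669-135887968, plus strand: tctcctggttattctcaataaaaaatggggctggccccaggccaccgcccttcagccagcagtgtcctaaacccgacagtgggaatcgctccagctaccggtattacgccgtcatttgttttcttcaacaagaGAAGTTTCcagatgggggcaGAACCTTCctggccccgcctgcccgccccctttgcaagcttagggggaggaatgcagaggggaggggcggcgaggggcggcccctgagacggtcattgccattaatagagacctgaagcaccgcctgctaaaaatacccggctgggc
The windows of Hspa1a and Hspa1b differed at 4 of 300 positions, C44T, T47C, T249G and C276T, counted from 1 at the 5′ end with the Hspa1a base first. Both held 1 match, starting 104 bases before the start site. Hspb1 held 2 matches, 117 and 97 bases before its start. Single matches also stood in windows of Hspb8, Hspb6, Hspb3 and Bag3, so that 7 of the 10 windows held at least 1, and neither Dnajb2 window did. Of all 32851 promoter windows, 15.1% held at least 1 of the 2 words. A run of 3 units was in 0.603% of all windows and in 0 of the 10. These are matches of letters only.

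Sequence shared with other genes limits what some of the counts can tell. Of the words of 75 bases (the read length) in the Hspa1b transcripts, 55.8% also occurred in Hspa1a transcripts, and 52.7% of the Hspa1a words occurred in Hspa1b. A read from these stretches cannot be placed on 1 gene by itself, so the pair was also summed. Reads came in pairs, and the other read of a pair may place it, so these shares are upper limits. For Hspb1, 46.4% of words occurred in the pseudogene Hsp25-ps1, which had 1 to 6 counts per library. For Hspa8, 33.0% occurred in other annotated genes, most in the pseudogene Gm15459, which had 175 to 334 counts. Cryab shared 252 exon bases with Hspb2 on the opposite strand, but Hspb2 had only 1 to 16 counts per library. Hspb6 shared 122 exon bases with Proser3 and 3 with Lin37, both on the opposite strand, which had 585 and 2494 counts over all libraries. Hspa1a shared 564 exon bases with Gm20481 on the opposite strand, which had 12 counts over all libraries. Hspb8, Hspb3, Bag3 and Dnajb2 shared no such word with another gene.

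The genes differed widely in level. Per kilobase of exon, Hspa8, the constitutive HSP70 that also strips clathrin from vesicles, was the highest in WT cord at 436 ± 24.4 RPKM (SD, n = 4). Cryab, which encodes αB-crystallin and is strong in glia, followed at 99.8 ± 20.4 RPKM. Next came Dnajb2 at 23.6 ± 1.81, Bag3 at 18.3 ± 3.30 and Hspb8 at 18.1 ± 3.09 RPKM, whose neighbouring ranges overlapped. Hspb1 stood at 9.15 ± 2.18 and Hspb6 at 3.16 ± 0.253 RPKM. Hspa1b at 1.93 ± 0.793 and Hspa1a at 1.26 ± 0.515 RPKM overlapped each other, and Hspb6 overlapped Hspa1b. Hspb3 was the lowest, at 0.110 ± 0.0969 RPKM. In MFN2 cord the order was the same down to Hspb6, but Hspa1a was above Hspa1b in the mean and in 5 of the 8 libraries, whereas per kilobase Hspa1b was above Hspa1a in all 4 WT libraries.

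**Figure D1:**
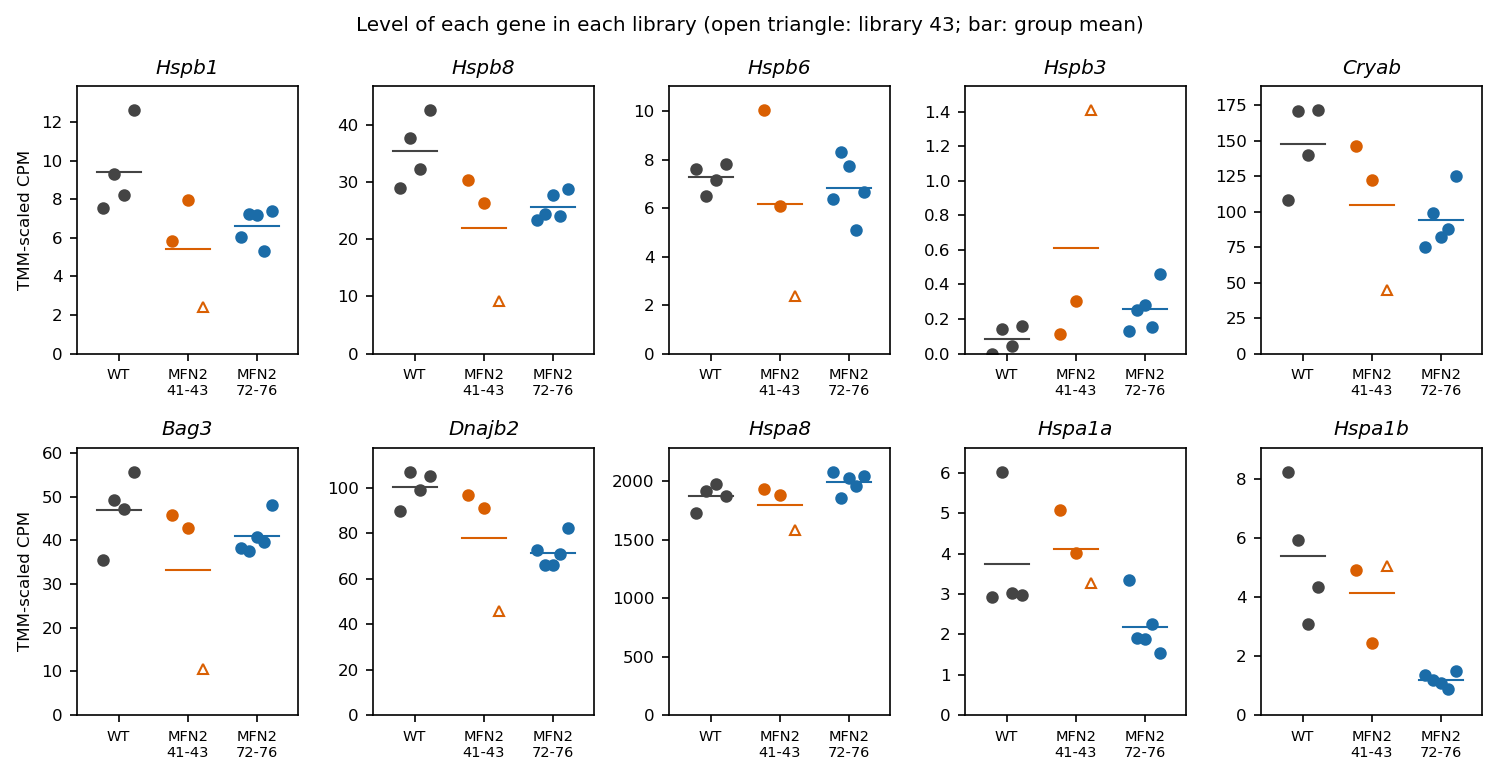
TMM-scaled CPM (vertical axes, from 0) of each of the 10 genes in WT libraries 44 to 47, MFN2 libraries 41 to 43 and MFN2 libraries 72 to 76, with 1 point per library and a bar at the group mean. Library 43, the open triangle, is the lowest for 7 of the 9 genes tested and the highest for Hspb3, and the 5 Hspa1b points of libraries 72 to 76 lie below all others.

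Across all 8 MFN2 and 4 WT libraries, none of the 9 tested genes was called, and neither was any of the 15942 genes (0%). At an unadjusted p under 0.05, 2386 genes passed. DESeq2 called 200 genes and none of these 9. Of the 9, 8 had a lower fitted mean in MFN2, as 49.2% of all genes tested had. Their median log2 fold change was -0.44, against 0.0038 over all genes tested. Hspb3, below the filter, had a higher mean in MFN2. Hspb1, Hspb8, Cryab, Dnajb2 and Hspa1b were lower with an unadjusted p under 0.05, which 7.57% of all genes were. Ranges of the groups overlapped for all 9, and did not overlap for 2.04% of all genes. Without library 43, 0.119% of genes were called, again none of the 9, and the median of the 9 was -0.38.

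Among the small heat-shock genes, Hspb1 (chr5:135887919-135889563) encodes HSP27, which guards actin and intermediate filaments. In WT libraries 44 to 47 it was at 7.55, 9.33, 8.24 and 12.6 CPM, in MFN2 libraries 41 to 43 at 5.84, 7.98 and 2.44 CPM, and in MFN2 libraries 72 to 76 at 6.06, 7.22, 7.20, 5.34 and 7.39 CPM. Library 42 alone among the 8 MFN2 libraries reached the WT range, and the highest WT library was 47. The log2 fold change of MFN2 against WT was -0.61 ± 0.24 (SE, edgeR adjusted p = 0.294), and without library 43 it was -0.49 ± 0.15 (edgeR adjusted p = 0.123).

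Hspb8 (chr5:116408491-116422864) encodes the partner of BAG3. It was at 28.9, 37.7, 32.3 and 42.6 CPM in WT, at 30.4, 26.3 and 9.24 CPM in libraries 41 to 43, and at 23.3, 24.4, 27.8, 24.2 and 28.8 CPM in libraries 72 to 76. All of libraries 72 to 76 lay below the lowest WT library, library 76 only just, and library 41 lay inside the WT range. The log2 fold change was -0.54 ± 0.23 (edgeR adjusted p = 0.309), and -0.42 ± 0.10 without library 43 (edgeR adjusted p = 0.0842).

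Cryab (chr9:50751325-50756636) was at 108, 171, 140.2 and 171 CPM in WT, at 146, 122 and 44.9 CPM in libraries 41 to 43, and at 74.96, 99.2, 82.4, 87.5 and 125 CPM in libraries 72 to 76. Of the last 5 libraries, 4 lay below the WT range and library 76 inside it. Its log2 fold change was -0.59 ± 0.25 (edgeR adjusted p = 0.306), and -0.48 ± 0.19 without library 43 (edgeR adjusted p = 0.186).

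Hspb6 (chr7:30552178-30555443) encodes HSP20, best known from muscle. It was at 7.60, 6.50, 7.18 and 7.83 CPM in WT, at 10.03, 6.07 and 2.39 CPM in libraries 41 to 43, and at 6.37, 8.33, 7.72, 5.11 and 6.68 CPM in libraries 72 to 76. MFN2 libraries lay on both sides of the narrow WT range. The log2 fold change was -0.14 ± 0.27 (edgeR adjusted p = 0.807), and without library 43 it was -0.017 ± 0.16 (edgeR adjusted p = 0.965). With all libraries an approximate 95% interval, from the SE by the normal distribution, was -0.66 to 0.38. The 10 skeletal muscle markers summed to 309.9 CPM in library 47, 362.5 CPM in library 73, 112 CPM in library 46 and 22.5 to 67.7 CPM in the rest, and Hspb6 was at 8.33 CPM in library 73 and 7.83 CPM in library 47, while its highest value, in library 41, stood beside 32.7 CPM of muscle markers. The part of muscle RNA in Hspb6 was not tested.

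Hspb3 (chr13:113662896-113663676), also a gene of muscle and motor nerve, was near the floor. It had 0, 3, 1 and 3 counts in WT, 3, 8 and 30 in libraries 41 to 43, and 3, 5, 7, 4 and 9 in libraries 72 to 76. Library 43 was far above the rest, and the other MFN2 libraries overlapped WT. A count of 0, found in WT library 44, allows up to 0.131 CPM (3 counts, counting error only). In a fit of all genes without a filter it was higher in MFN2 than in WT, opposite to most of the other genes. The log2 fold change was 2.13 ± 0.79 (edgeR unadjusted p = 0.0127, adjusted p = 0.532). For libraries 41 to 43 against WT it was 2.76 ± 0.94 (edgeR unadjusted p = 0.0114, adjusted p = 0.692). For libraries 72 to 76 against WT it was 1.53 ± 0.71 (edgeR unadjusted p = 0.0309, adjusted p = 0.177). Of the remaining family members counted, Hspb2, Hspb7, Hspb9 and Cryaa, none passed the filter, and the highest value of any was 2.16 CPM, for Hspb7.

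Of the co-chaperones, Bag3 (chr7:128523616-128546981) was at 35.4, 49.3, 47.2 and 55.7 CPM in WT, at 45.9, 42.9 and 10.7 CPM in libraries 41 to 43, and at 38.4, 37.6, 40.8, 39.7 and 48.1 CPM in libraries 72 to 76. Apart from library 43, every MFN2 library lay inside the WT range. Its log2 fold change was -0.30 ± 0.28 (edgeR adjusted p = 0.602) and shrank to -0.16 ± 0.10 without library 43 (edgeR adjusted p = 0.383).

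Dnajb2 (chr1:75236406-75245692) had tighter groups. It was at 89.9, 107, 98.7 and 105 CPM in WT, at 96.8, 91.0 and 45.9 CPM in libraries 41 to 43, and at 72.5, 66.0, 65.8, 70.8 and 82.2 CPM in libraries 72 to 76. Libraries 41 and 42 lay inside the WT range, and all of libraries 72 to 76 lay below both. The log2 fold change was -0.44 ± 0.15 (edgeR adjusted p = 0.278), and -0.36 ± 0.11 without library 43 (edgeR adjusted p = 0.117).

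Of the HSP70 genes, Hspa8 (chr9:40800984-40810087) varied least. It was at 1732, 1917, 1979 and 1878 CPM in WT, at 1931, 1882 and 1580 CPM in libraries 41 to 43, and at 2081, 1856, 2027, 1957 and 2050 CPM in libraries 72 to 76. Its log2 fold change was 0.033 ± 0.076 (edgeR adjusted p = 0.847), and without library 43 it was 0.069 ± 0.053 (edgeR adjusted p = 0.462). With all libraries an approximate 95% interval, from the SE by the normal distribution, was -0.12 to 0.18.

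Hspa1a was at 2.92, 6.03, 3.01 and 2.97 CPM in WT, at 5.07, 4.01 and 3.28 CPM in libraries 41 to 43, and at 3.34, 1.91, 1.89, 2.25 and 1.53 CPM in libraries 72 to 76. WT library 45 stood well above the other WT libraries. Hspa1b was at 8.25, 5.93, 3.10 and 4.33 CPM in WT, at 4.92, 2.44 and 5.07 CPM in libraries 41 to 43, and at 1.36, 1.20, 1.09, 0.890 and 1.48 CPM in libraries 72 to 76. The 5 Hspa1b values of libraries 72 to 76 rested on 23 to 31 counts each and lay below all 7 libraries of the first run, which had 64 to 189 counts. For MFN2 against WT, the log2 fold change was -0.35 ± 0.32 for Hspa1a (edgeR adjusted p = 0.593) and -1.22 ± 0.47 for Hspa1b (edgeR adjusted p = 0.289). Without library 43 it was -0.38 ± 0.33 for Hspa1a (edgeR adjusted p = 0.525) and -1.49 ± 0.43 for Hspa1b (edgeR adjusted p = 0.117).

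The summed pair was at 11.2, 11.96, 6.11 and 7.30 CPM in WT, at 9.99, 6.45 and 8.35 CPM in libraries 41 to 43, and at 4.70, 3.11, 2.98, 3.14 and 3.01 CPM in libraries 72 to 76. The first 2 sets overlapped, and the third lay below both. On the log2 scale the sum was lower by a difference of -0.90 in MFN2 (two-sided exact permutation test over 495 splits, p = 0.0566), and without library 43 by -1.02 (exact permutation p = 0.0333). Hspa1a made up 26.2% to 50.4% of the pair's counts in WT, 39.3% to 62.1% in libraries 41 to 43 and 50.8% to 71.6% in libraries 72 to 76.

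**Figure D2:**
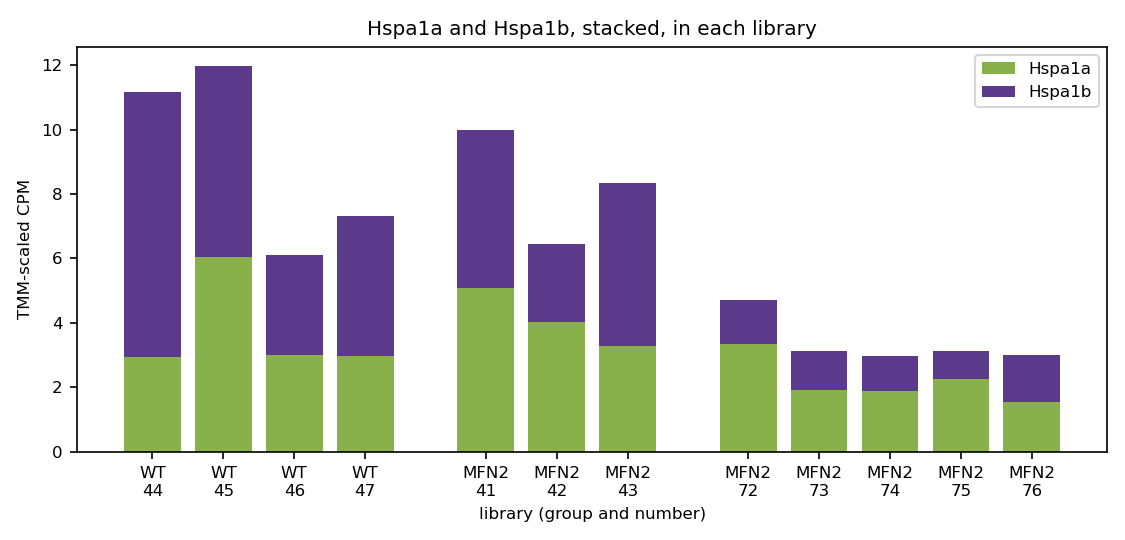
TMM-scaled CPM of Hspa1a and Hspa1b, stacked (vertical axis), in each of the 12 libraries (horizontal axis, group and number). The stacks of MFN2 libraries 72 to 76 reach 2.98 to 4.70 CPM, and those of the first run 6.11 to 11.96 CPM, with most of the gap in Hspa1b.

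The runs of library numbers were then compared. Libraries 41 to 43 against WT, the only comparison of genotypes within 1 run, called none of the 9 genes and 1 gene of all tested (0.00627%). Their log2 fold changes lay between -0.78 ± 0.38 for Hspb1 (edgeR unadjusted p = 0.0764, adjusted p = 0.635) and 0.16 for Hspa1a. With library 43 left out, 7 of the 9 fold changes lay nearer 0, among them those at -0.43 ± 0.23 for Hspb1, -0.30 ± 0.15 for Hspb8, -0.12 ± 0.19 for Cryab, -0.066 ± 0.15 for Bag3 and -0.081 ± 0.085 for Dnajb2. Hspa1b moved away from 0, from -0.37 to -0.55 ± 0.42, and Hspa1a from 0.16 to 0.29 ± 0.31. Hspb6 went from -0.22 to 0.16 ± 0.20 and Hspa8 from -0.047 to 0.035 ± 0.080. The median of the 9 was then -0.081, and 6 of them were below 0, as 50.5% of all genes tested were. The summed Hspa1 pair differed from WT by -0.11 (two-sided exact permutation test over 35 splits, p = 0.771), and without library 43, in a test added after the data were seen, by -0.13 (exact permutation p = 0.600, where 15 splits allow no less than 0.0667).

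Libraries 72 to 76 against WT gave the calls. Hspb1 was 1.42-fold lower (log2 fold change -0.50 ± 0.15, edgeR adjusted p = 0.0327), Hspb8 1.37-fold lower (-0.46 ± 0.11, edgeR adjusted p = 0.0104) and Cryab 1.57-fold lower (-0.65 ± 0.18, edgeR adjusted p = 0.0297). Dnajb2 was 1.40-fold lower (-0.48 ± 0.072, edgeR adjusted p = 0.00094), and Hspa1b 4.49-fold lower (-2.17 ± 0.27, edgeR adjusted p = 0.00039). These 5 of 9 compare with 12.2% of all genes called lower and 23.5% called in either direction, 1812 higher and 1941 lower. With library size alone as the scaling, 2823 genes were higher and 1346 lower, Hspb1 was not called (edgeR adjusted p = 0.0545) and Hspa8 was called higher (edgeR adjusted p = 0.0320). Hspb1, Hspb8, Dnajb2 and Hspa1b did not overlap WT, as 10.2% of all genes did not on the lower side. Hspb6 (-0.087 ± 0.14), Bag3 (-0.19 ± 0.12), Hspa8 (0.091 ± 0.055) and Hspa1a (-0.76 ± 0.28, edgeR adjusted p = 0.0616) were not called. The calls for Hspb8, Dnajb2 and Hspa1b held when any 1 of the 9 libraries was left out. Those for Hspb1 and Cryab did not: Hspb1 was lost without library 45, 47, 72, 74 or 75 and Cryab without library 45, 46, 47, 72, 73, 74 or 75, with adjusted p up to 0.0958 and 0.0811 (edgeR), while Hspb1 stayed 1.26-fold to 1.52-fold lower and Cryab 1.49-fold to 1.72-fold lower. The Hspa1 sum was lower by a difference of -1.38 (two-sided exact permutation test, p = 0.00794, the smallest that 126 splits can give).

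Other cell markers moved in the same comparison. Of the 6 astrocyte markers 4 (Gfap, Aldh1l1, Slc1a2 and Gja1) were called lower in libraries 72 to 76 than in WT and none higher, and their sum was 4963 to 6380 CPM against 6774 to 7751 CPM, with Slc1a2 the most abundant. Gfap, the intermediate filament of astrocytes, was at 756 to 1566 CPM against 1549 to 2762 CPM. Of the 6 microglia markers 5 (Cx3cr1, P2ry12, Tmem119, Csf1r and C1qa) were called lower, with sums of 80.0 to 103.4 CPM against 106.7 to 143.7 CPM and Csf1r the most abundant. None of the 6 oligodendrocyte or 6 motor neuron markers was called. Called higher were 2 of 6 neuron markers (Syt1 and Nefm), 1 of 5 blood markers (Alas2), 1 of 7 tested forebrain markers (Nrgn) and 1 of 8 immediate early genes (Egr1), and 11.4% of all genes were called higher. Called lower were 1 of 5 endothelial markers (Cldn5) and 2 of 6 mural markers (Acta2 and Myh11). No gene of the meningeal, skeletal muscle, Schwann or caudal Hox lists was called. The most abundant gene was Prph for the motor neuron list, Nefm for neurons, Hbb-bs for blood, Camk2a for forebrain, Egr1 for immediate early genes, Flt1 for endothelium, Rgs5 for mural cells, Col1a1 for meninges, Myh7 for skeletal muscle and Hoxa9 for the caudal Hox list. The called markers were chosen for naming after their values were seen. None of these genes was at 0 in all libraries, and their part in the values of Cryab and the others was not tested. Genotype, run of numbers and, by the labels, strain background cannot be told apart in this comparison.

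Within the MFN2 genotype, libraries 72 to 76 against 41 to 43 called 1 of the 9 genes. Hspa1b was 3.46-fold lower in libraries 72 to 76 (log2 fold change -1.79 ± 0.28, edgeR adjusted p = 0.0253), where 1.14% of all genes were called lower. Without library 41, 72, 73, 74, 75 or 76 the call was lost, with adjusted p up to 0.0897 (edgeR), while the fold stayed between 3.07 and 4.23 whichever library was left out. The Hspa1 sum differed by -1.27 (two-sided exact permutation test, p = 0.0179, the smallest that 56 splits can give), and without library 43, also added after the data were seen, by -1.25 (exact permutation p = 0.0476, the smallest that 21 splits can give). Of all genes, 184 were called higher and 181 lower, but 280 and 106 by library size alone and 226 and 112 by upper-quartile scaling. Without library 43 the calls were Dnajb2 (-0.40 ± 0.083, edgeR adjusted p = 0.0110), Hspa1a (-1.05 ± 0.27, edgeR adjusted p = 0.0251) and Hspa1b (-1.62 ± 0.29, edgeR adjusted p = 0.00565), all lower, beside 7.30% of all genes called lower. Hspb1 (-0.062 ± 0.17), Hspb8 (-0.15 ± 0.098), Bag3 (-0.12 ± 0.090), Hspb6 (-0.24 ± 0.22) and Hspa8 (0.063 ± 0.067) were then not called. Cryab (-0.52 ± 0.18) was not called (edgeR adjusted p = 0.104). In that fit without library 43, 3 of 6 microglia and 2 of 6 astrocyte markers were called lower. Called higher were 2 of 6 motor neuron, 2 of 6 neuron, 1 of 5 endothelial and 1 of 6 mural markers. Of all genes 7.29% were called higher. With library 43 included, all 6 microglia markers had a lower fitted mean, and 1 was called, the only call on the marker lists. The part of these cells in the chaperone values was not tested. Hspa1b was thus lower in MFN2 libraries 72 to 76 than in MFN2 libraries 41 to 43, and the cause of this difference was not tested. Its log2 fold change against WT was -2.17 for libraries 72 to 76 and -0.37 for libraries 41 to 43. No WT library lay in the run of libraries 72 to 76, so the value of -2.17 compares across runs as well as genotypes. These comparisons share libraries, so their values are given side by side only.

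**Figure D3:**
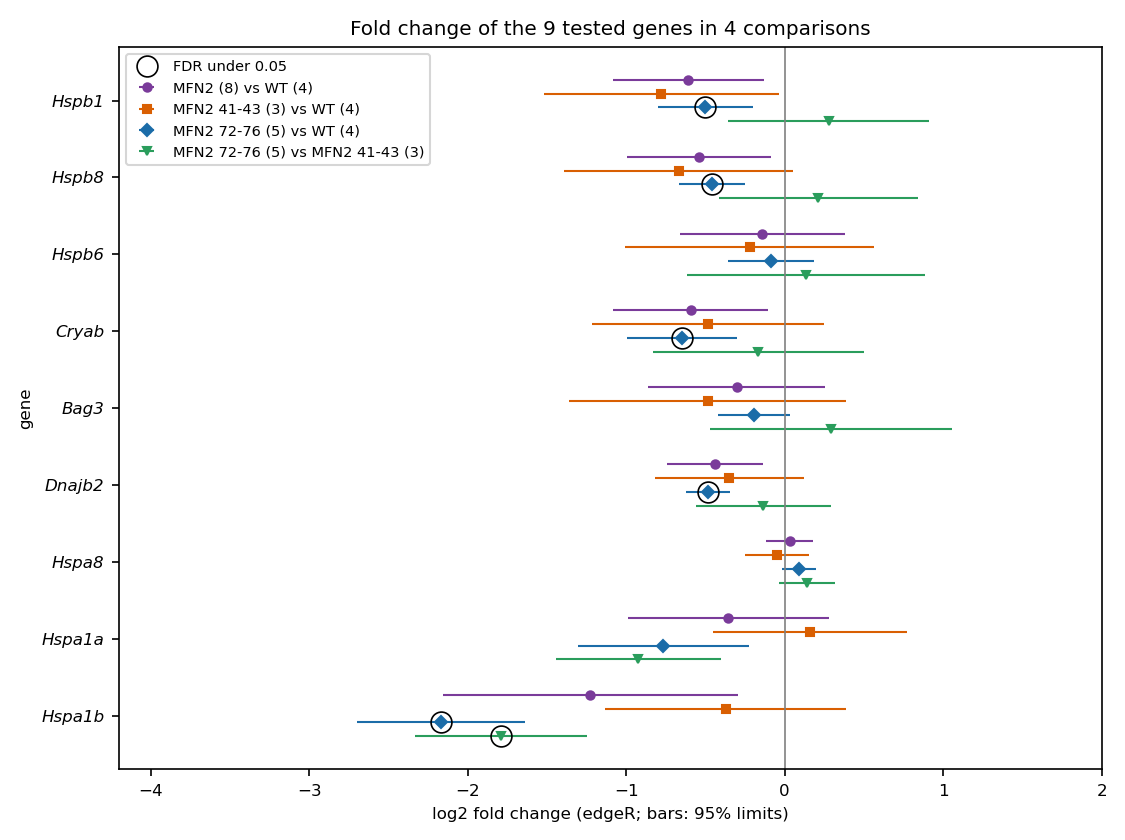
edgeR log2 fold change (horizontal axis) of the 9 tested genes (vertical axis) in 4 comparisons, with the number of libraries in brackets. Bars run to approximate 95% limits, from the SE by the normal distribution, and can clear 0 where the edgeR test does not pass. Open circles stand around calls at an FDR of 0.05. Circles lie on 5 genes for libraries 72 to 76 against WT, on Hspa1b for libraries 72 to 76 against 41 to 43, and on none for the 2 other comparisons.

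Library 43 was the lowest of the 12 for Hspb1, Hspb8, Hspb6, Cryab, Bag3, Dnajb2 and Hspa8, 7 of 9, as it was for 28.7% of all genes tested. Bag3 fell furthest, to 24.8% of the median of the other 11 libraries. Hspb8 was at 32.1%, Hspb1 at 33.0%, Hspb6 at 33.3%, Cryab at 36.7%, Dnajb2 at 51.1% and Hspa8 at 81.8% of theirs. Hspa1a, at 110%, and Hspa1b, at 207%, were not low there. Library 73, which shared the Schwann markers with library 43 but not the forebrain ones, was inside the range of the other second-run libraries for Hspb1, Hspb8, Cryab, Dnajb2 and the Hspa1 pair, the lowest of them for Bag3 and Hspa8 and the highest for Hspb6.

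Whether the genes moved together from mouse to mouse was asked after subtracting the mean of each of the 3 sets of libraries, over 36 pairs. Hspb8 and Bag3, whose proteins form a complex, gave the highest correlation (r = 0.986, rho = 0.916, exact permutation within sets, adjusted p = 0.00833 for r and 0.0333 for rho, n = 12). Without library 43 r passed (0.893, exact permutation, adjusted p = 0.0250, n = 11) and rho did not (0.800, exact permutation, adjusted p = 0.133). Without libraries 41 and 43, the 2 farthest from the median, r was 0.938. Bag3 with Dnajb2 (r = 0.976), Cryab with Bag3 (0.945), Hspb8 with Cryab (0.943) and Cryab with Dnajb2 (0.939) also passed, but not without library 43, where r was 0.807, 0.843, 0.797 and 0.775. Over all 36 pairs the median r fell from 0.75 to 0.19 when library 43 was left out. How often pairs of other genes reach such values was not computed, and library 43 was the lowest for 28.7% of all genes tested. These correlations are therefore not shown to be particular to the chaperone genes. Between Hspa1a and Hspa1b r was 0.094 (0.20 without library 43), and with the other 7 genes it ran from 0.091 to 0.41 for Hspa1a and from -0.42 to -0.059 for Hspa1b, none of which passed. Points share libraries, and so depth and tissue composition.

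**Figure D4:**
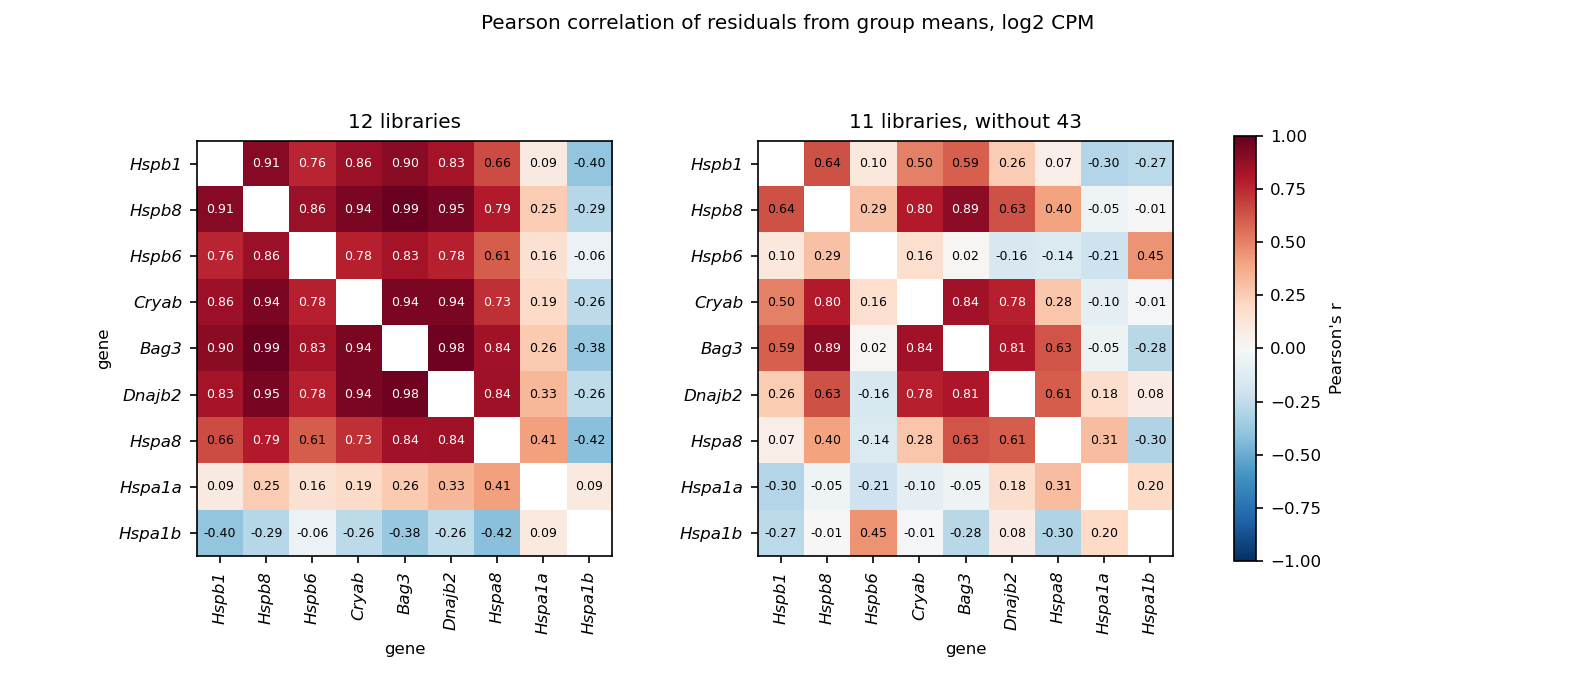
Pearson's r (colour scale from -1 to 1, values printed) between the 9 tested genes (both axes) of log2 CPM after subtraction of the mean of each set, over 12 libraries on the left and over 11 without library 43 on the right. Hspb8 with Bag3 is at 0.99 on the left and 0.89 on the right, and the median over pairs falls from 0.75 to 0.19.

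By the same measure over 11 libraries without library 43, the gene outside the 10 most like Cryab was Klhl4 (r = 0.992), followed by Rrm2b (0.985). Rdx, which encodes radixin, was most like Hspb8 (0.976), Gpc1, a glypican, most like Bag3 (0.971), and Serinc1 most like Hspa8 (0.981). Lpar6 was most like Hspb6 (0.966), Gm7160 most like Dnajb2 (0.961), Fbxo42 most like Hspa1a (0.947), Zmpste24 most like Hspa1b (0.946) and Hook3 most like Hspb1 (0.937). Each is the highest of all tested genes and so is high by selection. The values for Hspb8 with Rdx and Bag3 with Gpc1 lay above that of Hspb8 with Bag3, 0.893 over the same libraries. With library 43 included, r was 0.996 for Cryab with Klhl4, 0.988 for Hspb8 with Rdx, 0.918 for Hspb1 with Hook3 and 0.865 for Bag3 with Gpc1. It was lower for the other 5, at 0.571 for Hspa8 with Serinc1, 0.451 for Hspb6 with Lpar6, 0.320 for Dnajb2 with Gm7160, 0.289 for Hspa1b with Zmpste24 and 0.265 for Hspa1a with Fbxo42.

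Of 81 genes in lists of other chaperones and their regulators, 73 were tested. In MFN2 against WT 0 were called (11 at an unadjusted p under 0.05, edgeR), with a median log2 fold change of -0.033. The lowest p of each list belonged to Hspa12b, Dnaja4, Bag4, Tomm34, Cct8, Hsbp1 and Tfeb, with adjusted p from 0.254 to 0.409 (edgeR). Over the 12 libraries, 4 genes picked by hand had these levels: Hsf1, the master regulator of the heat shock response, was at 16.0 to 21.05 CPM, Dnajb1, a classical target, at 26.1 to 32.5 CPM, Hsph1 at 257 to 344 CPM and Hsp90aa1 at 1130 to 1840 CPM. In libraries 72 to 76 against WT, 11 of the 73 were called higher and 12 lower, against 11.4% and 12.2% of all genes, with a median of -0.029. The largest falls were of Synpo2 (-0.53 ± 0.14), which works with BAG3 in chaperone-assisted autophagy, Hspa12b (-0.50 ± 0.17), Hspa5 (-0.34 ± 0.066), the HSP70 of the endoplasmic reticulum, and Tomm34 (-0.33 ± 0.063). The largest rises were of Dnajc2 (0.33 ± 0.051), Hspa13 (0.25 ± 0.060), Dnajc21 (0.21 ± 0.061) and Dnajb6 (0.21 ± 0.057). Of the 6 partners of chaperone-assisted autophagy 3 were called lower and none higher, and of 24 J-protein genes 5 were called higher and 2 lower. Of 14 HSP90 co-chaperones 1 was higher and 4 lower, of 11 other HSP70 and HSP110 genes 3 were higher and 2 lower, and of 7 BAG and exchange factors 1 was lower. Of 8 chaperonin subunits 1 was higher and 1 lower, and of 4 heat shock factor genes 1 was higher, with Stub1 on 2 lists. Within MFN2, 0 of the 73 were called between the runs (edgeR), where 2.29% of all genes were. Without library 43, 4 were higher and 8 lower, beside 14.6% of all genes in either direction, the largest fall among them that of Synpo2 (-0.68 ± 0.20), followed by Stub1 (-0.47 ± 0.080), the ubiquitin ligase CHIP. The largest rises there were of Dnajc2 (0.28 ± 0.068), Hspa13 (0.24 ± 0.072), Dnajc13 (0.22 ± 0.056) and Hspa9 (0.20 ± 0.062), the last the HSP70 of mitochondria.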

How the data were processed

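Total RNA from lumbar spinal cord was purified with Qiagen RNeasy columns, and libraries were made with a Clontech SMARTer kit and read on an Illumina NextSeq as 75-base pairs. The authors trimmed adapters, aligned reads with STAR to GRCm38 and deposited raw read counts per Ensembl gene, 1 file per library. How reads were assigned to genes, and whether strand was used, is not given in the sources used here, so antisense overlaps are named. The counts were joined to GENCODE M21 (49289 of 49548 identifiers matched a symbol), scaled by TMM and fitted with edgeR 4.0.16 in R 4.3.3 (legacy quasi-likelihood, robust), only the libraries compared entering each fit, on genes above 1 CPM in at least 3 libraries. RPKM is scaled CPM per kilobase of merged exon. Log2 CPM for permutation tests and correlations used a prior count of 2. The fits and the correlation test were tested on simulated data. For the fits, all genes were drawn with the same spread between libraries, with no difference between runs and no library like 43. The counts that follow hold for that setting and do not give the power of the fits to the real libraries. Of 100 genes changed by a log2 fold change of 0.5, 10 were called in MFN2 against WT and 2 in libraries 41 to 43 against WT. Libraries 72 to 76 gave 3 against WT and 3 against libraries 41 to 43. At a log2 fold change of 1 the counts were 78, 51, 61 and 49 in the same order. The members, gene lists and tests were chosen with earlier results of these data known. Named were the 10 genes, up to 4 rises and 4 falls among the other chaperone lists (otherwise each list's lowest p), each marker list's most abundant gene (some are not reported here), and the gene most like each member. Within groups every pair of libraries differed by more than counting noise (chi-square per degree of freedom 4.99 to 171, where counting alone gives 1). Alternatives were limma 3.58.1, DESeq2 1.42.0, other scalings, filters, covariates and each library left out.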

Additional observations from a re-analysis of the deposited data

Results flagged for a closer look

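Within the 8 MFN2 libraries, library 43 was far from the rest for 4 genes by Dixon's ratio of gap to range. It was the lowest for Hspb8 (ratio 0.665), Bag3 (0.721) and Hspa8 (0.550), and the highest for Hspb3 (0.734), against a critical value of 0.526 for 8 libraries. Among the 4 WT libraries, library 45 was the highest for Hspa1a, with a ratio of 0.972 against a critical value of 0.829. In all, 22 groups were examined and 5 passed, where about 1.1 would by chance, and 4 of the 5 were in library 43, whose forebrain markers summed to 4685 CPM. What set library 43 apart was not tested beyond these markers.

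Hspa1b differed between the 2 sets of MFN2 libraries, by a log2 fold change of -1.79 in libraries 72 to 76 against 41 to 43 (edgeR adjusted p = 0.0253), with 5 of 5 libraries below all 3 of the others. The call was lost when library 41, 72, 73, 74, 75 or 76 was left out.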

How the results depend on the processing

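The count of called members in MFN2 against WT stayed at 0 under every alternative run, and in libraries 41 to 43 against WT likewise. The count of all genes called in MFN2 against WT rose from 0 to 200 with DESeq2 and to 13 with the forebrain score as a covariate, and was 0 to 19 with 1 library left out (7 without library 41, 19 without library 43, 1 without library 76). In libraries 72 to 76 against 41 to 43, DESeq2 called 1775 genes and 2 members (Hspa1a and Hspa1b). With 1 library left out, 26 to 2325 genes and 0 to 3 members were called, 3 of them without library 43 and 0 without 41, 72, 73, 74, 75 or 76. In libraries 41 to 43 against WT, DESeq2 called 4 genes, limma-voom 0 and the fit with no filter 0, and 0 to 2 were called with 1 library left out. In libraries 72 to 76 against WT, 2355 to 4517 genes and 3 to 7 members were called with 1 library left out. The lowest gene count came without library 45, and 3 members were called without 45, 47, 74 or 75. The 7 came without library 44, with Bag3 and Hspa1a added. Over all 18 alternatives of this comparison, the call was lost in 8 for Cryab and in 6 for Hspb1. Hspa1a was called in 4 of them, Bag3 in 2 and Hspa8 in 1. The Hspa1 sum differed by -0.90 in MFN2 against WT (exact permutation p = 0.0566) and by -1.07 to -0.75 with 1 library left out, with an exact permutation p under 0.05 without library 41 (-1.06, p = 0.0242), 43 (-1.02, p = 0.0333) or 46 (-1.07, p = 0.0485). With only libraries 72 to 76 as MFN2 it differed by -1.38 (exact permutation p = 0.00794). Of the correlated pairs, 1 of 5 passed without library 43 and 4 with library size as the only scaling.

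Some fitted log2 fold changes changed sign, and of the values given here that of Dnajb2 without library 43 (-0.40) was called (edgeR adjusted p = 0.0110). In MFN2 against WT, Hspa8 was -0.062 and Hspa1a 0.14 with the run of numbers as a covariate, Hspb6 was 0.056 with the forebrain score, and Hspa8 ran from -0.0034 to 0.069 with 1 library left out. In libraries 72 to 76 against 41 to 43, the ranges with 1 library left out were -0.062 to 0.66 for Hspb1, -0.15 to 0.50 for Hspb8, -0.24 to 0.66 for Hspb6, -0.52 to 0.14 for Cryab, -0.12 to 0.59 for Bag3 and -0.40 to 0.034 for Dnajb2. In libraries 41 to 43 against WT they were -0.75 to 0.16 for Hspb6, -0.095 to 0.035 for Hspa8 and -0.0096 to 0.49 for Hspa1a. In libraries 72 to 76 against WT the range for Hspb6 was -0.16 to 0.0040. The cause of these changes was not tested. No paired analysis was possible because no library number occurs in both groups. Hspb3 and the Hspa1 pair are limited by depth, with 0 to 30 and 23 to 189 counts per gene and library.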
